A study of Mus musculus with 8 samples.

Results

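The regions described here are 1536 stretches of the mouse genome that hold many CpG cytosines and were methylated in untreated leukaemic cells. They are tiles of 1000 bp, counted from position 1 of each of the 19 autosomes. They were chosen by measured values: a tile had to hold at least 40 covered cytosine positions in the deposited table, to have at least 20 reads in each of the 8 libraries, and to have a methylation level of 50% or more in both Vehicle libraries. The level is the share of reads in the tile that called the cytosine methylated. Of 320276 autosomal tiles with a covered position, 18978 held at least 40 positions, 16142 of these also had the reads, and 1536 passed the level. Vehicle values are therefore given as a description only, and the other 3 groups are compared with each other.

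Methylation was read by reduced representation bisulfite sequencing (RRBS). In this assay a restriction enzyme selects CpG-rich fragments, and bisulfite then converts the cytosines that carry no methyl group. All 8 libraries came from I1DN leukaemic progenitors, sorted as cKit+ and Cd11b-, of mice that had been transplanted with I1DN cells; the labels do not spell out what I1DN stands for. The 4 treatments were Vehicle, AG120, AZA and AG120 + AZA, here called the combination. AG120, or ivosidenib, blocks mutant IDH1, and AZA, or azacitidine, depletes DNA methyltransferases. Each group had 2 libraries, and the time in the labels was 5 days. The labels do not say whether the libraries of a group came from separate mice, so p-values measure only the spread between these libraries.

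In mammals, most CpG cytosines carry a methyl group, while dense clusters of CpGs, called CpG islands, are usually free of it. Islands that are methylated in normal somatic cells include those of germline genes, which are silenced outside the germ line, and the control regions of imprinted genes, which carry methylation on the copy from 1 parent. Mutant IDH1 makes 2-hydroxyglutarate, which inhibits the TET enzymes that oxidise methylcytosine, and AZA is built into nucleic acids and traps the methyltransferases.

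Start-site sequences from RefSeq (GRCm38.p6, 250 bases before to 50 after the start) are shown for 4 members to let the CpG content of such a region be seen. Each is written 5′ to 3′ on the gene's strand, with every CG in capitals. Ddx4 is a germline helicase gene, Ppp1r36 encodes a regulatory subunit of protein phosphatase 1, Gm11608 starts beside the imprinted gene Zdbf2, and Ajap1, a gene for a protein of adherens junctions, has the tile with the most covered positions.
Ddx4: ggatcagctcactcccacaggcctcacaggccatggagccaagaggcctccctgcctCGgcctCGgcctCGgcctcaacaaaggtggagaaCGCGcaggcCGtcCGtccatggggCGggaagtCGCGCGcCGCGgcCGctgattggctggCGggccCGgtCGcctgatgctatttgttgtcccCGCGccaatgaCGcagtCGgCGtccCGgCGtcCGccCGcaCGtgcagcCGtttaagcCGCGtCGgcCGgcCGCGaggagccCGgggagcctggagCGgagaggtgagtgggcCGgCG
Ppp1r36: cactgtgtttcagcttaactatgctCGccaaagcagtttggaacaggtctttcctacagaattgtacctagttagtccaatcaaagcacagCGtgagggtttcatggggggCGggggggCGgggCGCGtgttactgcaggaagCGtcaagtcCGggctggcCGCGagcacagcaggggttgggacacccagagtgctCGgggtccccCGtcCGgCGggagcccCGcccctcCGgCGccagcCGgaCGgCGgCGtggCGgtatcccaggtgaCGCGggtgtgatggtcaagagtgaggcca
Gm11608: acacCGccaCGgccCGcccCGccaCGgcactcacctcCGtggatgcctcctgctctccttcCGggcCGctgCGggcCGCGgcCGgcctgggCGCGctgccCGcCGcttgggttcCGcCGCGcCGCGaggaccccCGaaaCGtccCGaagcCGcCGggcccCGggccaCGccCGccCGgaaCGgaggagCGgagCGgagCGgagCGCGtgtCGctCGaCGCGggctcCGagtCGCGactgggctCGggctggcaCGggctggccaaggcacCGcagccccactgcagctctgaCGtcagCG
Ajap1: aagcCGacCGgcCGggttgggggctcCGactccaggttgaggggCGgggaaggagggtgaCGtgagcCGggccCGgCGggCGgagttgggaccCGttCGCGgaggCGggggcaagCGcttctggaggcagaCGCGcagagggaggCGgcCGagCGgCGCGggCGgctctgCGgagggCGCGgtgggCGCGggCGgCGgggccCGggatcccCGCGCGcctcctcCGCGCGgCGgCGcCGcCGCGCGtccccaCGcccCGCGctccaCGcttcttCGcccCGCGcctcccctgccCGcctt

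The Ddx4 window (chr13:112652261-112652560, minus strand) holds 38 CpGs, and its level lay between 87.0% in AZA replicate 2 and 99.9% in Vehicle replicate 1. In the Ppp1r36 window (chr12:76417349-76417648, plus strand), with 24 CpGs, the AG120 libraries had 7.40 and 44.3%, those of AZA 57.4 and 25.2%, and those of the combination 81.7 and 63%. The combination was above both other groups there. The Gm11608 window (chr1:63273207-63273506, minus strand) holds 48 CpGs and had 4.05 and 14.6% in AG120, 63.0 and 29.0% in AZA, and 56.5 and 54.5% in the combination. AG120 was below both other groups in that window. This did not hold in a second, overlapping start window of Gm11608 (chr1:63273124-63273423), also with 48 CpGs. There AG120 had 10.9 and 86.4%, on 110 and 66 reads, and AZA 64.9 and 28.8%. The combination had 64.3% in replicate 1 and 0 reads in replicate 2. The Ajap1 window (chr4:153482781-153483080, minus strand) holds 51 CpGs and reaches past the end of its tile. Its level was 91.2 and 84.0% in AG120, 92.4 and 72.9% in AZA, and 68.1 and 77.5% in the combination, where replicate 2 rested on 40 reads.

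Libraries held 90373925 to 130796962 CpG calls, and each tile level pools positions that differ between libraries. A member tile held 40 to 298 covered positions, with a median of 52, and 507 tiles held at least 60. A single library covered a median of only 21 to 26 of them, and in 951 tiles (61.9%) no position was read in all 8 libraries. Median reads per member tile ran from 973.5 in combination replicate 2 to 1538 in AG120 replicate 2. Of all calls in a library, 32.6 and 34.1% were methylated in Vehicle, 36.9 and 39.2% in AZA, 41.5 and 49.9% in AG120, and 48.0 and 50.5% in the combination. The part of these shifts in the results below was not tested, except that levels over shared positions are given beside the main ones. At the edges of the rule, the 3 members closest to the level threshold had a lower Vehicle level of 50%, and the 3 tiles just outside it had 49.6 to 49.7%. Exactly 40 positions were held by 80 members, and 89 tiles with 39 positions met the other conditions.

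The members stayed highly methylated in every group. The mean level over the 1536 tiles, each counted once, was 85.5 and 87.7% in the AG120 libraries (86.6% ± 1.56, SD, n = 2). It was 85.4 and 83.1% with AZA (84.3% ± 1.66) and 86.6 and 86.5% with the combination (86.6% ± 0.0549). Both AZA libraries were below both of the other groups, AG120 replicate 1 by less than 0.1 points, and the combination lay between the 2 AG120 libraries. This order was lost in 2 other settings given next, and in part over shared positions, given further below. With tiles shifted by 500 bp, AZA had 85.6 and 82.5% against 85.4 and 87.2% with AG120 (exact permutation p = 0.667). Over single positions with 10 or more reads in every library, AZA had 87.9 and 85.0%, AG120 86.8 and 88.6%, and the combination 86.9 and 87.4%, so AZA overlapped with both. AZA differed from AG120 by −2.37 points (exact permutation p = 0.333, two-sided), the combination from AG120 by −0.0531 points (exact permutation p = 1), and the combination from AZA by 2.31 points (exact permutation p = 0.333). With 2 libraries against 2, 0.333 is the smallest p this test can give, so no difference in mean level could pass a threshold. Single libraries set much of these sizes: without AZA replicate 2, AZA differed from AG120 by −1.19 points and the combination from AZA by 1.14, and without AG120 replicate 2 the first was −1.26. Over positions with at least 10 reads in all 4 libraries compared, a setting chosen after the data were seen, these differences were −2.88 points in 487 tiles, −1.03 in 382 and 1.11 in 404. In those same tiles with all positions they were −3.08, −0.173 and 3.33. The difference between the combination and AZA was thus smaller over shared positions, and there the libraries of both groups overlapped (exact permutation p = 0.667). AZA remained below AG120 in both libraries over shared positions (exact permutation p = 0.333). The Vehicle libraries, which chose the tiles, had 87.9 and 88.8%.

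**Figure D1:**
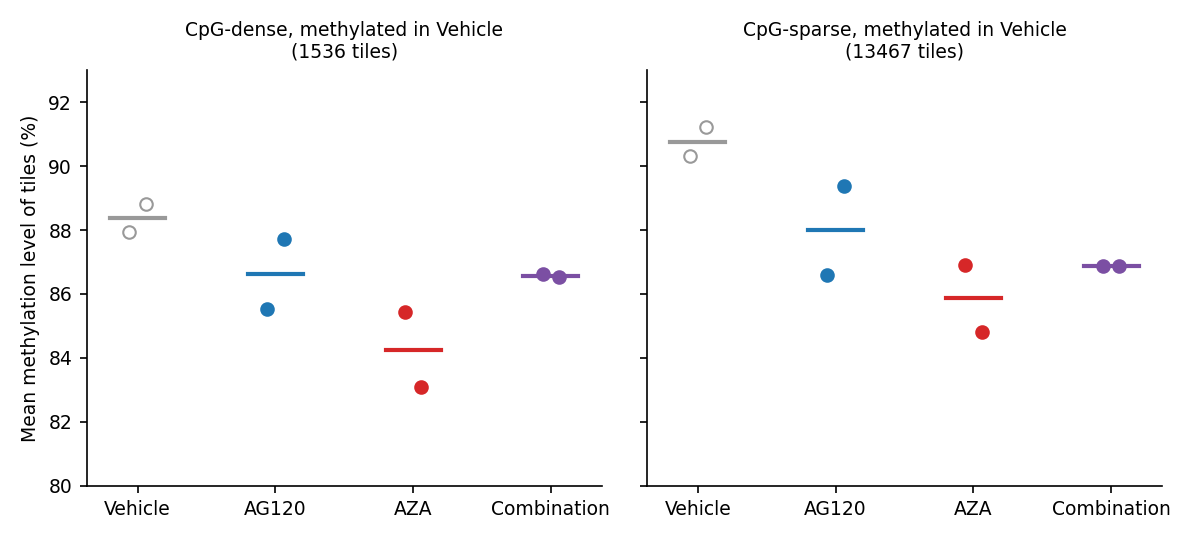
Mean methylation level (%) per library of the 1536 CpG-dense members (left) and of 13467 CpG-sparse tiles under the same level rule (right); points are libraries, lines are group means, and open points are Vehicle, which chose the tiles. The axis starts at 80%. In both panels the AZA group mean is the lowest, between 84.3 and 85.9%.

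Tiles with 3 to 19 covered positions that met the same conditions on reads and Vehicle level served as the CpG-sparse counterpart. Their 13467 members had a mean level of 88.0% ± 1.97 with AG120, 85.9% ± 1.48 with AZA and 86.9% ± 0.0032 with the combination (SD, n = 2). Under the rule as given, the dense tiles were below the sparse ones in each of these 6 libraries. The gap was −1.09 and −1.66 points with AG120, −1.49 and −1.74 with AZA, and −0.266 and −0.339 with the combination. The combination libraries had the smallest gaps and did not overlap with the others, but neither this nor the sign of the gap held in all settings. With a Vehicle level of 80% or more, the dense tiles were above the sparse ones in all 6 libraries, by 0.686 and 0.396 points with AG120, 0.590 and 1.5 with AZA, and 0.929 and 1.29 with the combination, which lay within the range of AZA. Over pooled reads, the gaps of the combination, −10.2 and −11.6 points, overlapped with those of AG120, −11.3 and −10.3, and of AZA, −12.5 and −11.2. A single tile (chr2:98666001-98667000), at 62.0 to 64.8% in the 6 treated libraries, weighs heavily in these pooled gaps. It held 33.1% (AZA replicate 2) to 44.6% (combination replicate 2) of the members' reads. Pooled gaps without this tile were not computed. The gap of the combination differed from that of AG120 by 1.07 points and from that of AZA by 1.31 points (exact permutation p = 0.333 for each), while AZA and AG120 differed by −0.240 points (exact permutation p = 0.667). Over shared positions the first of these was 0.000984 points (exact permutation p = 1), against 1.01 in the same tiles with all positions. The second was 0.237 points (exact permutation p = 0.667), against 2.47. The gap of the combination was thus closer to those of the other groups when the same positions were compared.

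Most members kept a level above 50% in all 6 treated libraries: 1237 tiles (80.5%) did so. A level of at least 90% in all 6 was found in 250 tiles (16.3%). The range over the 6 libraries had a median of 21.2 points per tile, was under 10 points in 281 tiles and over 50 points in 204. A level under 50% was reached by 109 and 65 members in the AG120 libraries, by 99 and 139 under AZA, and by 79 and 76 under the combination. Both libraries of a group were under 50% in far fewer: 33 tiles with AG120, 43 with AZA and 16 with the combination. The lowest levels were mostly those of a single library. Of 87 tiles under 20% in any of the 6 libraries, 71 were so in 1 library, 13 in 2 and 3 in 3 or more. AG120 replicate 1 alone had 35 members under 20%, against 6 in AG120 replicate 2.

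**Figure D2:**
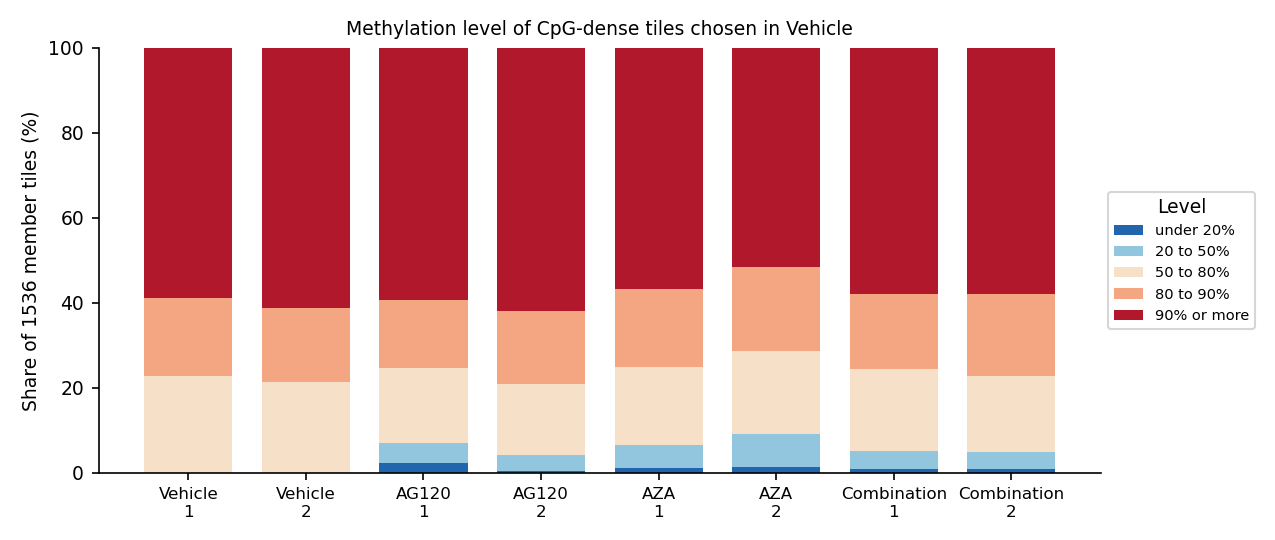
Share of the 1536 members (%, stacked to 100) in 5 bands of methylation level, per library. Vehicle has none under 50% because it chose the tiles. The share under 50% runs from 4.23% in AG120 replicate 2 to 9.05% in AZA replicate 2.

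Tile by tile, the spread between replicates fell inside the range seen between treatments. The mean absolute difference per member tile was 11.0 to 12.5 points in the 3 pairs within AG120, AZA or the combination. It was 10.3 to 13.5 points in the 12 pairs between them. This spread bounds what a test of single tiles can show with 2 libraries a group.

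No member passed the test of single tiles. In edgeR's quasi-likelihood test with Benjamini-Hochberg adjustment, fitted over 44190 tiles and read for the 1534 members in it, 0 members were called at 0.05 in each comparison, where the background was 0.0% of all tiles. At an unadjusted p under 0.05 there were 32 members for AZA against AG120 (12 higher, 20 lower; 2.97% of all tiles), 36 for the combination against AG120 (20 higher, 16 lower; 3.4%) and 41 for the combination against AZA (31 higher, 10 lower; 3.86%). Limma called 0 members too (background 0.0%), with 61, 56 and 61 (3.98, 3.65 and 3.98%) at an unadjusted p under 0.05 in the same order, beside 5.33, 5.9 and 6.63% of all tiles. The edgeR likelihood ratio test called 2, 3 and 6 members (0.130, 0.196 and 0.391%), beside 0.12, 0.665 and 0.726% of all tiles. DESeq2 called 5, 12 and 15 (0.326, 0.782 and 0.978%), beside 0.548, 1.28 and 1.24%. In no one of these tests were members called at a share clearly above that of all tiles. A count of 0 does not show that these tiles were equal, since members with differences of up to 68.2 points had an adjusted p of 1.

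Counts of members whose groups did not overlap and whose means differed by at least 10 points show which way they leaned. For AZA against AG120, 94 members were higher (6.12%, background 6.03%) and 191 lower (12.4%, background 9.48%). For the combination against AG120 the counts were nearly even, with 136 higher (8.85%, background 7.37%) and 132 lower (8.59%, background 8.07%). For the combination against AZA, 199 were higher (13%, background 9.7%) and 102 lower (6.64%, background 7.18%). These comparisons share libraries. All tiles tested include dense unmethylated tiles, of which 1.29% were higher and 2.32% lower for AZA against AG120. Sparse methylated tiles had 7.32% higher and 11.5% lower there. Their shares were 8.22 and 9.90% for the combination against AG120, and 11.3 and 8.70% for the combination against AZA. The members' 12.4% lower and 13% higher thus lay nearer to the sparse methylated tiles than to all tiles. The median difference over members was −1.33 points for AZA against AG120, −0.145 for the combination against AG120 and 1.19 for the combination against AZA, beside −0.0825, 0.0 and 0.0 over all tiles tested. Over sparse methylated tiles it was −0.385, 0.0 and 0.184. By 20 points or more, 32 members were higher (2.08%, background 3.26%) and 99 lower (6.45%, background 5.46%) for AZA against AG120. The counts were 68 higher (4.43%, background 4.37%) and 54 lower (3.52%, background 4.8%) for the combination against AG120, and 98 higher (6.38%, background 5.85%) and 46 lower (2.99%, background 4.25%) for the combination against AZA. At this size the members' shares lay near or below those of all tiles.

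Over shared positions, where fewer tiles could be compared, 21 members of 487 were higher by 10 points (4.31%, background 4.69%) and 49 lower (10.1%, background 7.27%) for AZA against AG120. For the combination against AG120, 25 of 382 were higher (6.54%, background 5.89%) and 37 lower (9.69%, background 6.69%). For the combination against AZA, 41 of 404 were higher (10.1%, background 7.3%) and 31 lower (7.67%, background 5.83%). The median differences were then −0.0963, 0.0 and 0.0 points in members and 0.0 in all tiles for each comparison.

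**Figure D3:**
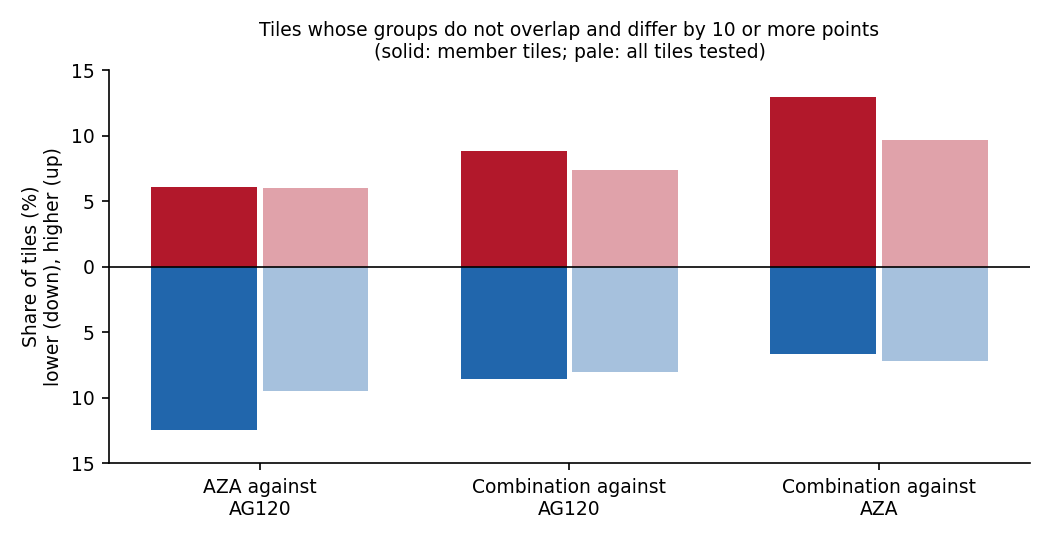
Share of tiles (%) whose groups do not overlap and whose means differ by 10 or more points, higher (up) or lower (down), for each comparison; solid bars are the 1536 members and pale bars the 44190 tiles tested. For AZA against AG120 the lower bar of the members stands at 12.4% beside 9.48% for all tiles. Sparse methylated tiles, not drawn, had 11.5% lower in this comparison.

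The level of a member varied with how many positions it held and where it lay. Members with 40 to 59 positions (1029 tiles) had 88.1% ± 1.28 with AG120, 86.4% ± 1.37 with AZA and 87.6% ± 0.0248 with the combination (SD, n = 2 in each). Members with 60 to 99 positions (373 tiles) had 86.1% ± 1.95, 83.0% ± 1.83 and 86.2% ± 0.335. The 134 densest members were the lowest: the libraries had 74.9 and 78.6% with AG120, 73.5 and 68.7% with AZA, and 79.6 and 79.8% with the combination. In that class every combination library was above every AG120 library, and every AG120 library above every AZA library. No test was run on these classes, and 2 libraries against 2 could not go below an exact permutation p of 0.333.

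The RefSeq start-site table used here has no entry on chromosome 18, where 58 members lie, so the place of a tile is given for the other 1478. Of these, 139 (9.40%) held a start site, 973 (65.8%) lay in a gene body without one and 366 (24.8%) lay between genes. Sparse methylated tiles held a start site in 1.68% and lay between genes in 37.2%. CpG-dense tiles under 20% in both Vehicle libraries, 12409 in number, held one in 54.1%. Members with a start site had 77.9% ± 2.98 with AG120, 74.7% ± 3.59 with AZA and 79.3% ± 1.68 with the combination (SD, n = 2). Their AZA libraries, 77.2 and 72.2%, overlapped with the AG120 libraries, 75.8 and 80%. In gene bodies the levels were 87.4% ± 1.65, 84.5% ± 1.64 and 87.1% ± 0.0960, and there both AZA libraries were below both of the other groups. Between genes they were 88.5% ± 0.435, 87.7% ± 0.569 and 88.5% ± 0.223. The AZA libraries, 88.1 and 87.3%, were below both of the other groups there too, though AG120 replicate 1 was close at 88.2%.

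**Figure D4:**
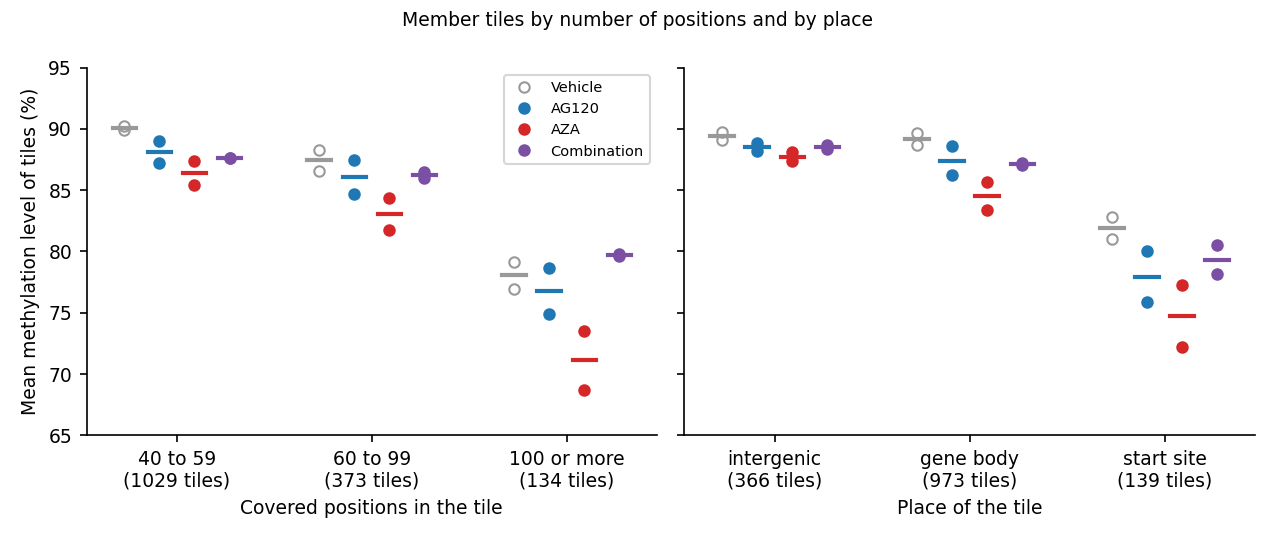
Mean methylation level (%) of the members per library, by covered positions in the tile (left) and by place (right); points are libraries, lines group means, open points Vehicle, and the axis starts at 65%. The 134 tiles with 100 or more positions and the 139 with a start site lie lowest in every group.

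The members were CpG-rich at their start sites, though less so than unmethylated dense tiles. They were chosen for many covered positions, so the contrast with all windows was largely set by that choice and is description only. Over 165 start-site windows of 149 genes, the median was 21 CpGs in 300 bases, 63% G and C, and an observed to expected CpG ratio of 0.701. Windows in dense unmethylated tiles had a median of 26 CpGs and a ratio of 0.844, and all 31365 autosomal windows 7 CpGs and 0.388. The letters CCGG, the site of MspI, an enzyme used in RRBS, stood in 90.9% of the members' windows, 94.5% of those of dense unmethylated tiles and 53.5% of all. Searched on both strands, TCCCGC stood in 44.2, 43.9 and 20.2% of windows in the same order, CACGTG in 10.3, 10.8 and 7.14%, and TGCCGC in 19.4, 24.3 and 11.6%. None of these letter strings holds another, and a match is only a match of letters. As a check of the build, 99.3% of 446755 covered positions inside RefSeq windows fell on a CpG of that sequence.

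AZA against AG120 asks how the methyltransferase inhibitor alone compares with the IDH1 inhibitor alone. The members named for each comparison are the 4 highest and 4 lowest differences among those with groups that did not overlap and 200 or more reads in every library. Each had an adjusted p of 1 in edgeR's quasi-likelihood test in all 3 comparisons. Ttll3, a tubulin glycylase gene (chr6:113392001-113393000, start site), had 77.3 and 72.9% with AG120 and 21.0 and 27.4% with AZA, a difference of −50.9 points. Its combination libraries stood at 61.1 and 63.6%, so replicates were close in all 3 groups. Here and below, start site marks a tile that holds a start, and the levels are those of the whole tile. The start windows of such tiles were not always read in every library and can differ from the tile. That of Ttll3 had reads only in AZA replicate 1 (81 reads, 22.2%). Tcfl5, a transcription factor gene active in testis (chr2:180642001-180643000, start site), had 88.9 and 81.8% with AG120, 1.5 and 64.7% with AZA, and 72.8 and 87.6% with the combination. Its low mean with AZA rested on replicate 1. The start window of Tcfl5 had 91.6% in AZA replicate 2. It had 0 reads in AZA replicate 1, AG120 replicate 1 and combination replicate 2. Map3k6, a kinase gene (chr4:133250001-133251000, gene body), had 95.2 and 89.3% with AG120 and 51.6 and 16.4% with AZA. Gm39592 (chr1:13104001-13105000, gene body) had 65.9 and 90% with AG120 and 22.9 and 33.2% with AZA.

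In the other direction, Npas4, a transcription factor gene of neurons (chr19:4989001-4990000, start site), had 0.133 and 26.3% with AG120 and 57.1 and 61.8% with AZA. Its combination libraries, 43.1 and 49.6%, lay between the groups. The start window of Npas4 held 0 covered positions. Kcnn4, a calcium-activated potassium channel gene (chr7:24377001-24378000, gene body), had 18.2 and 25.5% with AG120, 74.1 and 42.6% with AZA, and 40.7 and 31.7% with the combination. The combination again lay between the others. Tnrc18 (chr5:142814001-142815000, gene body) had 0.777 and 32.7% with AG120 and 81.1 and 45.4% with AZA, and Gm39391 (chr11:101696001-101697000, start site) 49.5 and 43.9% against 79.3 and 87.6%. The differences of these 4 ran from 36.5 to 46.5 points. In the start window of Gm39391, AG120 had 49.1 and 100%, the latter on 10 reads, and AZA 86.8 and 89.3%. Both groups overlapped in that window.

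The combination against AG120 asks what AZA adds to the IDH1 inhibitor. Fut10, a gene of the fucosyltransferase family (chr8:31187001-31188000, gene body), had 7.61 and 26.6% with AG120, 32.2 and 31.9% with AZA, but 79.0 and 62.4% under the combination, so the combination was above both. The tile of Ppp1r36 (chr12:76417001-76418000), whose start window is printed above, had 16.1 and 46.4% with AG120, 67.0 and 40.9% with AZA, but 92.1 and 76.6% under the combination. Lox, the lysyl oxidase gene (chr18:52528001-52529000), had 31.9 and 40.6% with AG120, 42.7 and 37.6% with AZA, but 66.9 and 79.1% under the combination. In these 3 tiles both single treatments were lower than the combination. 2310005E17Rik (chr13:98430001-98431000, gene body) had 49.2 and 43.6% with AG120 against 79.4 and 85.9% under the combination.

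The lowest differences for the combination against AG120 had a wide spread between its 2 libraries. Npbwr1, a neuropeptide receptor gene (chr1:5916001-5917000, gene body), had 98.5 and 80.2% with AG120 yet 8.22 and 69.5% with the combination. Frem2, a gene of the extracellular matrix (chr3:53656001-53657000, gene body), had 51.6 and 74.8% against 2.05 and 45.9%. Ttll1, a tubulin polyglutamylase gene (chr15:83511001-83512000, gene body), had 76.4 and 92.4% against 62.2 and 19.3%. In Bahcc1 (chr11:120284001-120285000, gene body) the levels were 85.6 and 95.2% against 69.5 and 35.6%. In each of the 4, 1 combination library was at least 30 points below the other, and Npbwr1 rested on at least 202 reads per library.

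The combination against AZA asks what the IDH1 inhibitor adds to AZA. The tile with the largest difference lay 7137 bp from Scd2, a stearoyl-CoA desaturase gene (chr19:44314001-44315000), and had 36.2 and 2.91% with AZA and 82.4 and 93% with the combination, a difference of 68.2 points. Its AG120 libraries, 73.4 and 41.8%, lay between. Lca5l (chr16:96159001-96160000, gene body, 143 positions) had 8.98 and 34.2% with AZA, 77 and 77.7% with the combination and 63.5 and 41.4% with AG120. The order of the 3 groups was the same in both tiles. Hoxb3, a homeobox gene (chr11:96344001-96345000, gene body), had 60.2 and 32.6% with AZA and 100 and 92.6% with the combination. Tdrd6, a tudor-domain gene of the germ line (chr17:43630001-43631000, gene body), had 21.7 and 62.0% with AZA and 88.1 and 92.7% with the combination. The adjacent Tdrd6 tile did not show this: it had 51.8 and 65% with AZA and 37.4 and 77.2% with the combination.

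Of the 4 lowest differences between the combination and AZA, 2 were Npbwr1 and Bahcc1 again. Their AZA libraries had 71.0 and 74.6% and 83.8 and 86.6%. The others were a tile 959 bp from Zfp503, a zinc finger gene (chr14:21982001-21983000), with 61.8 and 24.2% with AZA and 3.82 and 23.7% with the combination, and 2810410L24Rik (chr11:120188001-120189000, gene body), with 93.3 and 61.3% and 53.3 and 43.4%. In both, the groups were separated by less than the gap between the AZA libraries.

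**Figure D5:**
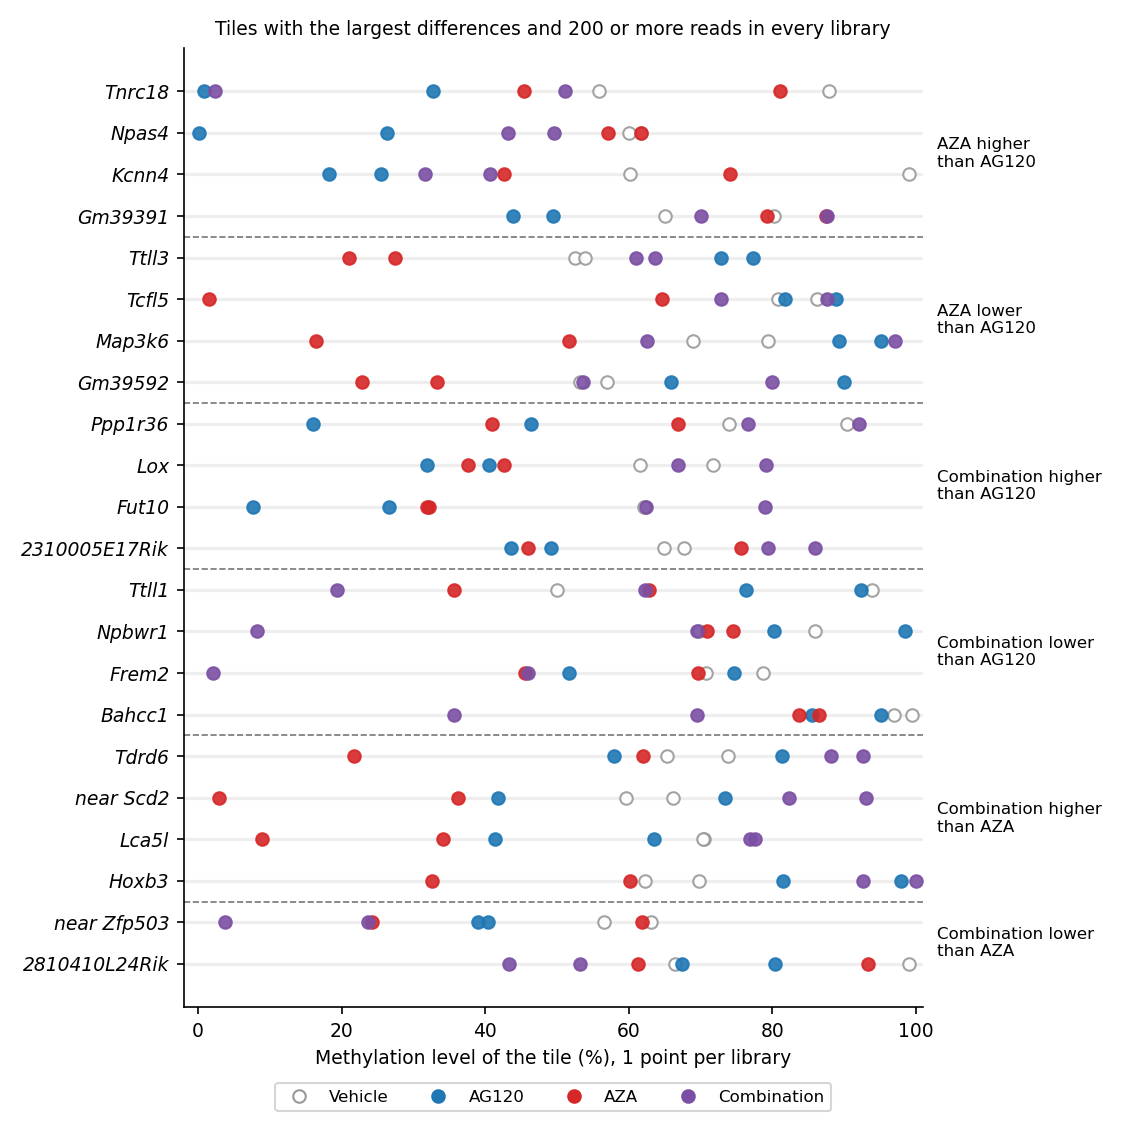
Methylation level (%) of the members with the largest differences and at least 200 reads in every library; each point is a library, open points are Vehicle, and dashed lines separate the comparisons. Npbwr1 and Bahcc1, shown once, also belong to the last set. Replicates of Ttll3 lie close together, while those of Tcfl5 with AZA lie at 1.5 and 64.7%.

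Gene groups are described next. A member tile lay in or within 1000 bp of 4.87% of the 20661 autosomal protein-coding genes. Beside each group's counts of tiles apart by 10 points stand the shares of all tiles given above: 6.03% higher and 9.48% lower for AZA against AG120, 7.37 and 8.07% for the combination against AG120, and 9.7 and 7.18% for the combination against AZA. With 3 to 17 tiles a group, these counts rest on few tiles and were not tested.

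Imprinted genes had 13 member tiles at 10 of 48 matched genes: Blcap, Gnas, Grb10, H13, Magel2, Mkrn3, Nnat, Peg10, Rtl1 and Zdbf2. Their mean level was 73.8% ± 0.663 with AG120, 64.7% ± 8.34 with AZA and 71.4% ± 6.83 with the combination (SD, n = 2). By at least 10 points and without overlap, 0 were higher and 4 lower for AZA against AG120, 1 higher and 1 lower for the combination against AG120, and 4 higher and 0 lower for the combination against AZA. Median differences were −7.30, −3.21 and 7.87 points. Grb10, a growth-restraining adaptor gene, had 3 tiles. The first (chr11:12025001-12026000) had 90.3 and 87.1% with AG120, 78.6 and 68.5% with AZA, and 72.0 and 90.5% with the combination. The second (chr11:12026001-12027000, 165 positions) had 64.3 and 85.0%, 56.7 and 66.6%, and 76.5 and 79.2%. In the third (chr11:12036001-12037000), which rested on as few as 43 reads in a library, the levels were 80.9 and 75.1%, 55.9 and 30.7%, and 79.1 and 60%. AZA was below AG120 without overlap in the first and the third, and overlapped with it in the second.

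The tile that holds the starts of Zdbf2 and Gm11608 (chr1:63273001-63274000, 206 positions) had 19.2 and 48.0% with AG120. It had 55.7 and 29.2% with AZA, and 76.6 and 58.6% with the combination. Over this tile the combination was above both other groups, which overlapped with each other. The start window of Zdbf2 itself had 10.9 and 85.0% with AG120, 50.7 and 18.2% with AZA, and 0 reads in both combination libraries. Gnas, which encodes a stimulatory G protein subunit (chr2:174299001-174300000, 114 positions), had 40.8 and 64.3%, 63.3 and 53.8%, and 62.4 and 86.6% in the same order, and its groups overlapped for AZA against AG120. Magel2 (chr7:62377001-62378000) had 54.9 and 47.0%, 60 and 44.6%, and 54.2 and 66.1%. Nnat, the neuronatin gene (chr2:157560001-157561000), had 93.3 and 72.8%, 64.9 and 69.4%, and 100 and 7.14%, and Peg10 (chr6:4755001-4756000) lay between 89.6 and 100% in all 6 libraries.

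Germline genes had 17 member tiles at 15 of 60 matched genes: Boll, Dazl, Ddx4, Dmrtb1, Hormad1, Mael, Meioc, Slc25a31, Smc1b, Sohlh2, Stag3, Sycp1, Sycp3, Tdrd1 and Tdrd6. Their mean level was 89.0% ± 1.65 with AG120, 85.6% ± 2.18 with AZA and 89.5% ± 3.53 with the combination. By 10 points without overlap, 0 were higher and 2 lower for AZA against AG120, 1 higher and 0 lower for the combination against AG120, and 1 higher and 0 lower for the combination against AZA. Dazl, an RNA-binding gene of germ cells (chr17:50293001-50294000, start site), had 99.5 and 99.9% with AG120, 93.9 and 81.6% with AZA, and 92 and 100% with the combination. The AZA libraries were below both AG120 libraries. The start window of Dazl had 0 reads in AG120 replicate 1, AZA replicate 2 and combination replicate 2. Ddx4 (chr13:112652001-112653000, start site) had 99.3 and 97.9%, 94.7 and 87.0%, and 97.1 and 95.9%, again with AZA lowest. Sohlh2, a transcription factor gene of early germ cells (chr3:55182001-55183000, start site), had 100 and 95.7%, 91.7 and 92.6%, and 93.8 and 99.6%. Its start window had 0 reads in AZA replicate 1 and combination replicate 1. Tdrd1, a tudor-domain gene of the piRNA pathway (chr19:56826001-56827000, start site), had 99.4% in both AG120 libraries, 99.7 and 92.9% with AZA, and 90.1 and 89.1% with the combination. Over that tile the combination was lowest. The start window of Tdrd1 (chr19:56826025-56826324) had 0 reads in AG120 replicate 1, both AZA libraries and combination replicate 1. AG120 replicate 2 had 68.5% in that window on 54 reads, and combination replicate 2 100% on 8 reads. Boll (chr1:55362001-55363000, start site), with as few as 53 reads in a library, was more scattered, with 60.4 and 84.3%, 83.1 and 73.0%, and 90.5 and 76.3%. A tile in Gpc2 beside Stag3, a meiotic cohesin gene (chr5:138275001-138276000), had 98.0 and 79.0%, 100 and 96.5%, and 99.1 and 94.6%.

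Of 130 developmental transcription factor genes, 3 (2.31%, beside 4.87% of protein-coding genes) had a member, Foxc2, Foxd3 and Irx2, with 1 tile each. Their mean level was 44.8% ± 12.8 with AG120, 43.2% ± 8.53 with AZA and 62.8% ± 5.03 with the combination. Foxc2 (chr8:121116001-121117000, gene body, 150 positions) had 47.6 and 42.0% with AG120, 53.4 and 27.8% with AZA, and 70.1 and 69.5% with the combination. Foxd3, a neural crest factor gene (chr4:99656001-99657000, start site, 163 positions), had 37.7 and 58.9%, 62.8 and 58.3%, and 78.1 and 62.2%. The combination was above AG120 without overlap in both of these, and above AZA in Foxc2 but not in Foxd3. In the start window of Foxd3 alone, AG120 had 11.4 and 65.9%, AZA 15.1 and 19.6%, and the combination 11.1 and 65.8%. All 3 groups overlapped in that window. Over the 3 tiles, 2 were higher by at least 10 points and 0 lower for the combination against AG120 and, likewise, against AZA, while for AZA against AG120 the counts were 0 and 0. Of 39 matched Hox genes, 4 had members, in 6 tiles: Hoxa3, Hoxa5, Hoxa6 and Hoxb3. Their mean was 86.0% ± 1.24 with AG120, 77.1% ± 3.95 with AZA and 82.2% ± 11.4 with the combination, and by 10 points without overlap 1 was higher and 1 lower for AZA against AG120, 0 and 0 for the combination against AG120, and 1 and 0 for the combination against AZA. The tile of Hoxa5 (chr6:52204001-52205000, start site) had 83.3 and 86.8%, 79.8 and 86.4%, and 89.4 and 93%, and that of Hoxa3 (chr6:52175001-52176000) lay between 83.0 and 97.4% in all 6 libraries.

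Protocadherin genes encode cell adhesion molecules and are arranged in clusters, where 1 tile can count for many genes. They had 7 member tiles at 30 of 58 matched genes (51.7%, beside 4.87% of protein-coding genes). Their mean was 74.6% ± 1.94 with AG120, 78.7% ± 7.38 with AZA and 78.1% ± 0.679 with the combination, and 2 tiles were higher and 2 lower for AZA against AG120, 3 and 1 for the combination against AG120, and 1 and 2 for the combination against AZA. The tile with the most reads (chr18:36992001-36993000) had 76.9 and 86.2% with AG120, 99.5 and 73.7% with AZA, and 88.7 and 100% with the combination. The next (chr18:37691001-37692000) had 99.8 and 82.7%, 79.6 and 56.0%, and 74.8 and 86.0%. AZA was below AG120 in the second of these and overlapped with it in the first. Tumour suppressor genes had 7 tiles at 6 of 42 genes, Cdh1, Cdkn1a, Fhit, Igfbp3, Rarb and Runx3, with means of 73.3% ± 1.01, 64.5% ± 1.09 and 72.0% ± 5.48. For AZA against AG120, 0 of these were higher and 1 lower, with 2 and 1 for the combination against AG120 and 2 and 0 for the combination against AZA. Igfbp3, which encodes a binding protein of insulin-like growth factors (chr11:7213001-7214000, start site, 143 positions), had 60.2 and 43.3% with AG120, 61.6 and 37.1% with AZA, and 42.1 and 74.9% with the combination, so all 3 groups overlapped. Rarb, a retinoic acid receptor gene (chr14:16938001-16939000), with as few as 77 reads, had 92.2 and 96.8%, 75.8 and 99.9%, and 95.6 and 76.6%. Of 25 genes of the methylation machinery and IDH, Mbd3, Tet3 and Zbtb38 had 1 tile each. Mbd3, of the methyl-CpG-binding domain family (chr10:80395001-80396000), had 99.8 and 95.6%, 100 and 73.0%, and 99.7 and 100%. Zbtb38 (chr9:96687001-96688000) rested on as few as 27 reads.

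Of 37 matched cell type markers, 1 (2.7%, beside 4.87% of protein-coding genes) had a member tile. Expression was not measured in these libraries, so the sort could not be checked. Among 7 progenitor markers, Gata2, a transcription factor gene of blood progenitors, had 1 tile (chr6:88196001-88197000), with 94.9 and 95% with AG120, 100 and 90.3% with AZA, and 78.7 and 99.9% with the combination. The groups overlapped. Myeloid, lymphoid, erythroid and megakaryocytic, and stromal and endothelial markers had 0 member tiles each.

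The 4 members with the most covered positions lay in Ajap1, Tafa5, Shisa6 and Gm26974. The Ajap1 tile (chr4:153482001-153483000, start site, 298 positions) had 89.3 and 87.3% with AG120, 78.0 and 61.4% with AZA, and 69.5 and 87.7% with the combination. Tafa5, a gene for a secreted brain protein (chr15:87624001-87625000, 290 positions), had 38.6 and 75.4%, 52.9 and 49.0%, and 72.9 and 54.1%. Shisa6, an auxiliary subunit gene of AMPA receptors (chr11:66526001-66527000, 253 positions), had 30.3 and 52.3%, 64.0 and 59.1%, and 66.1 and 48.9%. Gm26974 (chr7:123983001-123984000, start site, 248 positions) had 69.2 and 81.4%, 59.8 and 72.4%, and 83.2 and 77.3%. AZA was below AG120 without overlap in Ajap1 and above it in Shisa6, so these densest tiles shared no direction.

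Most members stood alone. Of their runs, 1364 were of a single tile, 74 of 2 adjacent tiles and 8 of 3. In the run of 3 tiles in Agap2, a GTPase-activating protein gene (chr10:127079001-127082000), levels lay between 81.5 and 100% in the 6 treated libraries. Those of 2700081O15Rik (chr19:7421001-7424000) lay between 85.2 and 99.9%. The run at Isyna1, an inositol phosphate synthase gene, and Ssbp4 (chr8:70596001-70599000) spanned 60.2 to 100%, with its lowest value in a tile with as few as 45 reads in a library. The run at Ajap1 was the most scattered of these 4. Beside its densest tile, the first (chr4:153481001-153482000) had 68.3 and 50.4% with AG120, 80.7 and 38.2% with AZA, and 89.1 and 69.9% with the combination. By chromosome, members made up 5.0% (chromosome 16) to 13.7% (chromosome 12) of the dense tiles with reads in every library.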

How the data were processed

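Per the file headers, the deposited table holds raw counts of methylated and of unmethylated reads for each CpG cytosine in each library, with the strands apart and no normalization. Tools named in the submitters' processing notes are Bismark 0.22.3, edgeR 3.32, R 4.0.2, Trim Galore 0.4.4, SAMtools 1.4.1 and bcl2fastq 2.17.1.14, and the build is mm10. For deduplication and the conversion rate, nothing is given in the sources used here, and the spike-ins were not used. All 4006353 positions were read, 0 columns of per-sample values were unused, and calls per library ran from 90373925 to 130796962. PCR reads are not independent molecules.

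Counts were summed over 1000-bp tiles with Python 3.11.15. Tiles on the autosomes and X with at least 3 positions, at least 20 reads in every library and both kinds of read entered 1 fit of all 8 libraries in edgeR 4.0.16 (R 4.3.3). The model has library terms and 1 methylation coefficient for each group, and differences were tested by quasi-likelihood with robust estimation. The scripts were checked on simulated data with planted differences. At the highest spread between libraries that was simulated, the quasi-likelihood test called none of the planted differences. Limma 3.58.1 (log2 ratio of methylated to unmethylated counts, pseudocount 2) and DESeq2 1.42.0 were alternatives. Library means were compared by two-sided exact permutation tests. A tile's place came from RefSeq gene and start-site tables (GRCm38.p6, the coordinates of mm10). It was named by the gene whose start it held, otherwise by the gene it overlapped or the nearest one. List genes were matched to tiles within 1000 bp of the gene. Named tiles were the 4 highest and 4 lowest differences per comparison. These came from members with 200 or more reads in every library and groups that did not overlap. Up to 8 tiles each for the imprinted and germline lists and 2 for other lists were added by reads. The 4 densest tiles and 4 of the 8 runs of 3 tiles, which tied as the longest, were named too. The members, lists and rules were chosen with earlier results of these data known.

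Libraries were not taken to be paired by replicate number, so the model holds no block.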

Additional observations from a re-analysis of the deposited data

How the results depend on the processing

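The difference in mean level kept its direction in every alternative run for AZA against AG120 and for the combination against AZA. With each library left out in turn it ran from −3.54 to −1.19 and from 1.14 to 3.49 points. Its size moved further elsewhere: AZA against AG120 (−2.37) was −1.24 over single positions, −3.72 with 60 or more positions and −4.30 over pooled reads without the deepest tile. The combination against AZA (2.31) was 0.729 over single positions, 1.08 under a Vehicle level of 80%, 1.11 over shared positions, 4.60 with 60 or more positions and 5.11 over pooled reads without the deepest tile. For the combination against AG120, close to 0, it ran from −1.16 to 1.05 and turned positive with 100 or more reads in every library (0.356), with 60 or more positions (0.883), with tiles shifted by 500 bp (0.423), without AG120 replicate 2 (1.05) and over pooled reads without the deepest tile (0.814). The gap between dense and sparse tiles for AZA against AG120 turned to 0.503 under a Vehicle level of 80%, to 0.665 over single positions with 10 or more reads in every library, and to 0.0452 without AG120 replicate 1 (lowest −0.524). For the combination against AG120 it turned to −0.132 over pooled reads (0.784 to 1.35 with a library left out), and to 2.004 with 60 or more positions. Against AZA it ran from 1.18 to 1.43 with a library left out, but was 0.0641 under a Vehicle level of 80% (exact permutation p = 1), 0.128 over single positions, 0.237 over shared positions, 2.10 with 100 or more reads and 3.596 with 60 or more positions. Under the 80% level the dense tiles were above the sparse ones in all 6 libraries. The causes were not tested.

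Members that did not overlap by 20 points, higher and lower, numbered 32 and 99 for AZA against AG120, 68 and 54 for the combination against AG120, and 98 and 46 for the combination against AZA, beside 3.26 and 5.46%, 4.37 and 4.8%, and 5.85 and 4.25% of all tiles. With 100 or more reads in every library, only 1062 members remained. The counts that fell most in proportion were 56 higher for AZA against AG120, and 83 and 65 lower for the combination against AG120 and against AZA. Shares of all tiles were not computed for this setting, so these counts show no change in share. Over shared positions they were 21 and 49, 25 and 37, and 41 and 31, where fewer tiles could be compared. Leaving out a library, which leaves 1 against 2 and so separates more tiles, gave 153 to 250 and 278 to 372, 196 to 294 and 211 to 274, and 286 to 359 and 154 to 236. No shares of all tiles were computed with a library left out, so these ranges say nothing particular to the members.

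The likelihood ratio test called 2, 3 and 6 members (0.12, 0.665 and 0.726% of all tiles) and DESeq2 5, 12 and 15 (0.548, 1.28 and 1.24% of all tiles), in the order above. Limma and the other quasi-likelihood fits called 0, those without a library included, where the lone library of a group is assumed to vary like the others. A fit with the replicate block called 0 members too (30, 32 and 39 at an unadjusted p under 0.05, beside 2.67, 3.17 and 3.56% of all tiles). Deviations of same-numbered libraries correlated between −0.0398 and 0.0565 over members, so the numbers were not taken to pair libraries. In 61.9% of members no position was read in all 8 libraries, so this check could miss a pairing. Alternatives over shared positions, over pooled reads without the deepest tile, and the counts with a library left out were chosen after seeing the data. With 2 libraries a group and differences of 11.0 to 12.5 points between replicates, differences at single tiles, large ones included, may go uncalled, and the exact permutation test cannot go below 0.333.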

Other observations

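A single member held far more reads than any other. The tile on chromosome 2 from 98666001 to 98667000, which overlaps no gene in the table, had 41 covered positions and 13592361 reads over the 8 libraries, against 453242 for the next deepest member. Its level was 63.1 and 64.8% in Vehicle, 62.5 and 64.8% with AG120, 62.9 and 62.0% with AZA, and 62.1 and 62.6% with the combination, a spread of under 3 points where the median range over the 6 treated libraries was 21.2 points.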
